A study of Rattus norvegicus with 9 samples.

Results

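Kidneys of granule-treated hypertensive animals (QDG) were compared with kidneys of normal animals (WT). The 2 groups were taken by their labels and make up 6 of the 9 libraries of the study, 3 of each. The labels give the WT animals as normal and the QDG animals as hypertensive and treated with Qingda granule. The remaining 3 libraries came from hypertensive animals without the granule (Model). All animals were 6 weeks old, and RNA depleted of ribosomal RNA was sequenced from renal tissue. Every QDG animal carried hypertension as well as treatment, so the comparison holds both together. Strain, cause of the hypertension and granule dose, as well as whether each library stands for its own animal, remain unstated in the labels. Hence p-values reflect only how these libraries vary, and that variation may be technical.

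The kidney sets blood pressure over the long term through the salt and water that its tubules reabsorb and through the renin it releases. Its proximal tubule cells live largely on the oxidation of fatty acids in mitochondria. Qingda granule is a Chinese herbal preparation used against high blood pressure, and the title of the series asks about the ERK and RSK1 kinases and protection of mitochondria. The comparison of QDG with WT addresses which features of the treated hypertensive kidney differ from normal.

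Identifiers stand in for gene names below, since neither the files nor the reference tables link the 2. The labels name the brown rat, while 17553 of the 17862 features carry identifiers of the form that Ensembl gives to mouse genes. The other 309 are marked as new and carry a running number. None of the identifiers (0) is in the table of rat genes used here, which lists no Ensembl identifiers. The functions of the features, and the kidney identity of the tissue by its marker genes, were therefore not examined. Values are FPKM, reads or fragments scaled to feature length and to a library total. In bulk tissue, fewer cells of a type and less RNA per cell cannot be told apart.

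Among the 12187 features whose mean over the 9 libraries reached 1 FPKM, 301 differed between QDG and WT, which is 2.47% of those tested (limma on log2(FPKM + 1), two-sided, Benjamini-Hochberg adjusted p under 0.05). In QDG, 199 were higher (1.63%) and 102 lower (0.837%). Over all tested features the log2 difference had a median of −0.0012 and quartiles of −0.15 and 0.17. The library divisors in the deposited values were not plain read totals, and a scaling of this kind can itself set the median near 0. All differences below are on the log2(FPKM + 1) scale, and for low values this scale makes a change look smaller than it is. The smallest difference called was 0.41 among the higher features and −0.41 among the lower. Before adjustment, the 95% interval of a difference had a median half-width of 0.29.

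**Figure D1:**
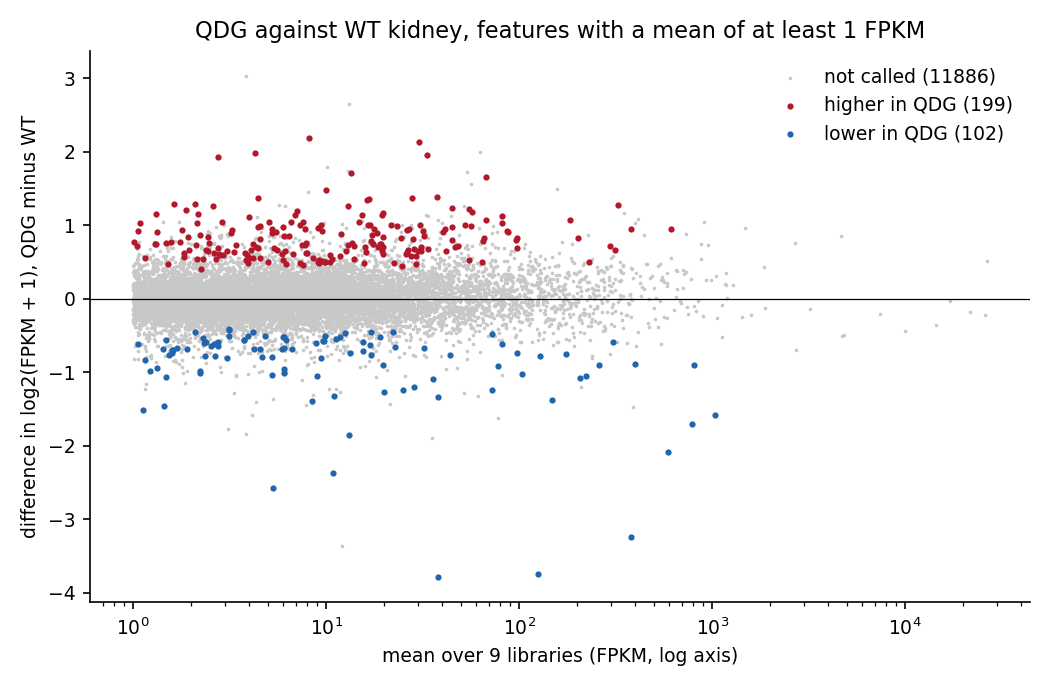
Each point is 1 of the 12187 tested features, with its mean over the 9 libraries (FPKM, log axis) against the difference in log2(FPKM + 1) of QDG minus WT. The 199 features called higher and the 102 called lower lie on both sides of 0, and the deepest falls reach past −3 while no called rise reaches 3.

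Among the listed features the falls reached further than the rises. The deposited values hold no 0, so a feature without reads in a library could not be compared. By 2-fold or more, 48 features were higher and 28 lower. By 4-fold or more, 2 were higher and 6 lower. Differences under 1.5-fold made up 37 of the 199 higher and 26 of the 102 lower calls. A further 65 features differed by 2-fold or more without being called (33 higher and 32 lower in QDG).

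The feature that rose most among those called was ENSMUSG00000020429. It stood at 2.502, 2.07 and 2.88 FPKM in WT 1 to 3 and at 19.1, 11.4 and 15.03 FPKM in QDG 1 to 3. Every QDG library lay far above every WT library. The group means were 2.48 ± 0.407 FPKM (SD, n = 3) and 15.2 ± 3.82, which is a log2 difference of 2.195 (SE 0.20, limma adjusted p = 0.0014). Hypertensive kidneys without the granule stood at 7.27, 8.20 and 4.91 FPKM, between both groups and without overlap with either. Against WT these Model libraries were higher by a log2 of 1.14 (limma adjusted p = 0.0152), in a comparison that shares the WT libraries and that called 7.9% of features. QDG against Model shares the QDG libraries, and there limma called 0 of the 12187 features (0.0%; 1695 at an unadjusted p under 0.05, and 0 by voom on recovered reads under either scaling). In it this feature differed by 1.05 with a 95% interval of 0.61 to 1.496 (limma adjusted p = 0.216). The feature rests on 83 to 836 reads per library over a length of 1525 bases.

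The next largest rise was that of ENSMUSG00000067144, from 6.32, 4.56 and 5.61 FPKM in WT to 38.4, 30.9 and 17.4 FPKM in QDG. The QDG libraries were uneven, and QDG 3 stood lowest, but the lowest QDG value still lay above every WT value. QDG exceeded WT by 2.14 (SE 0.26, limma adjusted p = 0.00649). The Model libraries, at 61.7, 43.8 and 63.0 FPKM, lay above all QDG libraries. The QDG mean was thus 5.26 times the WT mean, and the gap from Model to QDG (log2 −0.99, 95% interval −1.56 to −0.42) did not pass (limma adjusted p = 0.282).

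Among features with an Ensembl identifier, ENSMUSG00000027875 fell most. Its values were 282, 300.5 and 357 FPKM in WT and 20.1, 23.9 and 23.04 FPKM in QDG. The QDG libraries were close to each other and kept 7.14% of the WT mean. On the log2 scale QDG differed from WT by −3.75 (SE 0.53, limma adjusted p = 0.009999). Without QDG 1 the difference was −3.68 and no longer passed (limma adjusted p = 0.0511). The Model libraries stood at 12.9, 20.04 and 90.9 FPKM, so QDG lay within their range. The SD was 1.97 FPKM in QDG, 39.2 in WT and 43.1 in Model, and all 3 groups enter the shared estimate of the spread. With only WT and QDG fitted, the SE was 0.13 (limma adjusted p = 1.23e-05). Without Model 3 the SE was 0.17 (limma adjusted p = 3.4e-05). Without Model 1 or Model 2 the SE was 0.42 or 0.53, and the feature passed in both fits.

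ENSMUSG00000028715 fell from 799, 968 and 897 FPKM in WT to 86.3, 89.3 and 103.6 FPKM in QDG. The groups lay far apart, and QDG kept 10.5% of the WT mean. The means were 888 ± 84.6 and 93.1 ± 9.26 FPKM (SD, n = 3), which is a log2 difference of −3.24 (SE 0.28, limma adjusted p = 0.0014). In Model the feature stood at 85.8, 198.8 and 205 FPKM, and QDG differed from Model by a log2 of −0.71 (95% interval −1.34 to −0.07, limma adjusted p = 0.325). Depth did not limit this feature, which had at least 6423 reads in every library.

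The deepest fall of all belonged to a feature that the files mark as new, 914 bases long. It stood at 116.0, 91.9 and 88.6 FPKM in WT and at 9.94, 4.71 and 4.91 FPKM in QDG, with no overlap. It differed by −3.79 (SE 0.35, limma adjusted p = 0.00141). Model libraries held 5.17, 6.45 and 15.6 FPKM, a range that overlapped QDG. Of the 213 tested features marked as new, 2 were higher and 5 lower in QDG, which are 0.939% and 2.35% of them, beside 1.63% and 0.837% of all features.

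**Figure D2:**
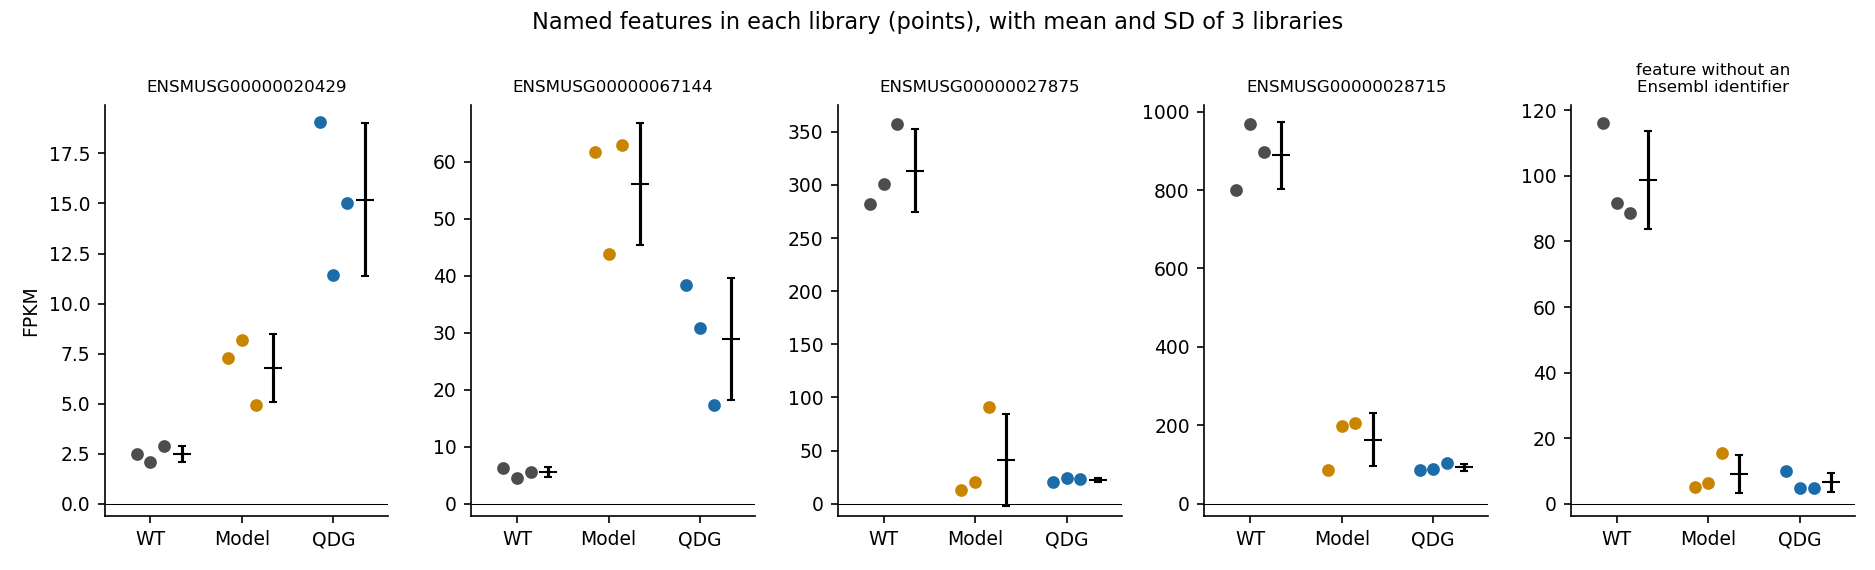
FPKM of the 5 features in each of the 9 libraries (points), with the mean and SD of each group (bar, n = 3) and a linear axis of its own for each feature. WT and QDG do not overlap in any of the 5 panels, and Model overlaps QDG in the 3 panels of features that fell.

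The 301 called features were chosen by these same libraries, so their levels in each library are a description. The features called higher stood at a median of 0.74 (QDG 3) to 0.82 (QDG 1) above the WT mean on the log2(FPKM + 1) scale, and those called lower at −0.71 (QDG 1) to −0.78 (QDG 2). The choice of features keeps these medians away from 0 in every QDG library. In the Model libraries, which were set against the same WT mean, these medians were 0.78, 0.56 and 0.76 for the higher and −0.65, −0.46 and −0.51 for the lower features, with Model 2 nearest to WT in both. In summed level, the lower features made up 2.51% to 2.61% of all FPKM in the WT libraries and 0.972% to 1.07% in QDG. The higher features made up 0.785% to 0.954% in WT and 1.62% to 1.74% in QDG. In Model the lower features made up 1.12% to 1.32% and the higher ones 1.52% to 1.70%. Such sums follow the most abundant features. Those called lower include ENSMUSG00000064337 and ENSMUSG00000027513, with means of 1038 and 807.4 FPKM, beside a median of 7.54 FPKM among the 102. The WT library nearest to QDG was WT 2 for 82 of the 199 higher features and WT 3 for 50 of the 102 lower ones.

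**Figure D3:**
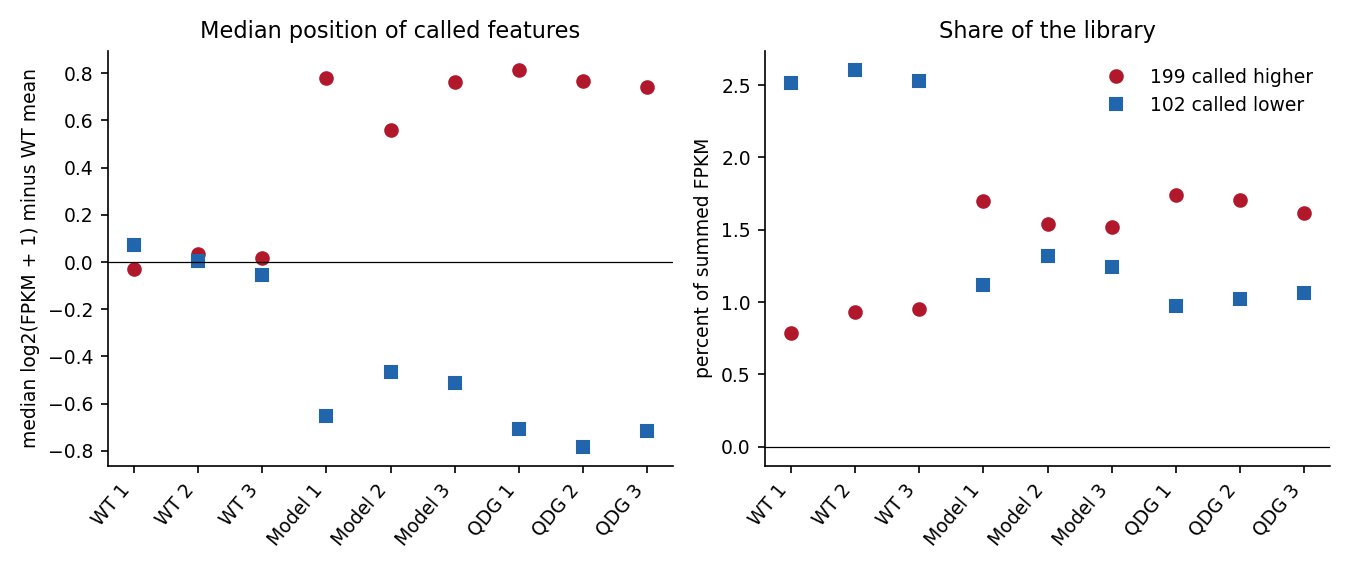
Left, median over the called features of log2(FPKM + 1) minus the WT mean in each library; right, the percent of all FPKM that they make up. Circles stand for the 199 higher and squares for the 102 lower features. The 3 QDG libraries lie together in both panels, between 0.74 and 0.82 for the circles on the left. Model 1 and Model 3, at 0.78 and 0.76, lie within that range, and Model 2 lies below it at 0.56.

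In the class of 100 FPKM and over, lower calls outnumbered higher ones, with 15 of 536 features lower (2.8%) and 8 higher (1.49%). Classes were set by the mean over the 9 libraries, which holds the values compared. A high level in only 1 group can therefore lift a feature into this class. Model and QDG means of ENSMUSG00000027875 were 41.3 and 22.4 FPKM, yet its WT mean of 313 brought it to 125.7. How far this shaped the shares was not tested. In the other abundance classes higher calls led, as they did among all features. At 1 to 5 FPKM, 64 of 5521 features were higher (1.16%) and 40 lower (0.725%). At 5 to 20 FPKM these were 76 (1.78%) and 33 (0.772%) of 4276, and at 20 to 100 FPKM 51 (2.75%) and 14 (0.755%) of 1854. These shares were not tested against each other, since features of a library are not independent. Of the 20 most abundant features limma called 0, with 4 at an unadjusted p under 0.05, while voom on recovered reads called 2 or 3 of them, depending on the scaling. With 2.47% of all features called, 20 features are too few to read a share from. Of the 100 most abundant, 1 was higher (1.0%) and 5 lower (5.0%). The median log2 difference of the 20 most abundant was −0.16, and that of the 100 most abundant was 0.14.

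Feature length was almost unrelated to the difference, with a Spearman's rho of −0.04 across the 12187 features, which share their libraries and depth. The number of calls was 530 (327 higher and 203 lower) once each library's trend with length was removed. That step also takes out each library's overall offset. Quantile normalization, which does not use length, gave 515 calls (306 higher and 209 lower). The part that length had in the number of calls was not tested. Shares of calls varied over the length classes, without a test, beside 1.63% higher and 0.837% lower among all features. Lower calls lay close to that share under 1000, at 1000 to 2000 and at 4000 to 6000 bases. Between 1000 and 2000 bases, 2.35% of 1535 features rose and 0.912% fell. Between 2000 and 4000 bases, 2.51% of 3583 features were higher and 1.17% lower. For 4000 to 6000 bases these shares were 1.3% and 0.877% of 2624 features. From 6000 bases upward, 0.829% of 3258 features rose and 0.368% fell. Under 1000 bases the shares were 1.01% and 0.927% of 1187 features. The median length was 3082 bases among the higher features, 2995.5 among the lower and 3861 among all tested.

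In each of the 301 called features the WT and QDG values did not overlap. Such separation was common without a call. It held for 3378 of all tested features (27.7%), with 1853 higher and 1525 lower in QDG, and 3077 of these were not called. An unadjusted p under 0.05 was reached by 2597 features, 1438 higher and 1159 lower. WT libraries varied more among themselves than QDG libraries did, with a median SD of 0.19 against 0.09 on the log2(FPKM + 1) scale, and the WT SD was the larger for 77.6% of features.

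The number of calls depended on single libraries. It was 775 without WT 3, 73 without WT 1, 44, 39 and 65 without QDG 1, 2 and 3, and 515 without Model 2, which enters only the shared estimate of the spread. Of the 301 features, 30 were called in the same direction in each of the 6 fits that left out a WT or QDG library, 18 higher and 12 lower. Their median log2 differences were 1.02 and −1.45, and the smallest was 0.74. Passing all 6 fits is a stricter bar on the same values and favors large differences. The 30 include 4 of the 5 features described above, all except ENSMUSG00000027875, but those 5 were themselves picked by size. Another 17 of the 301 were called in none of those 6 fits.

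**Figure D4:**
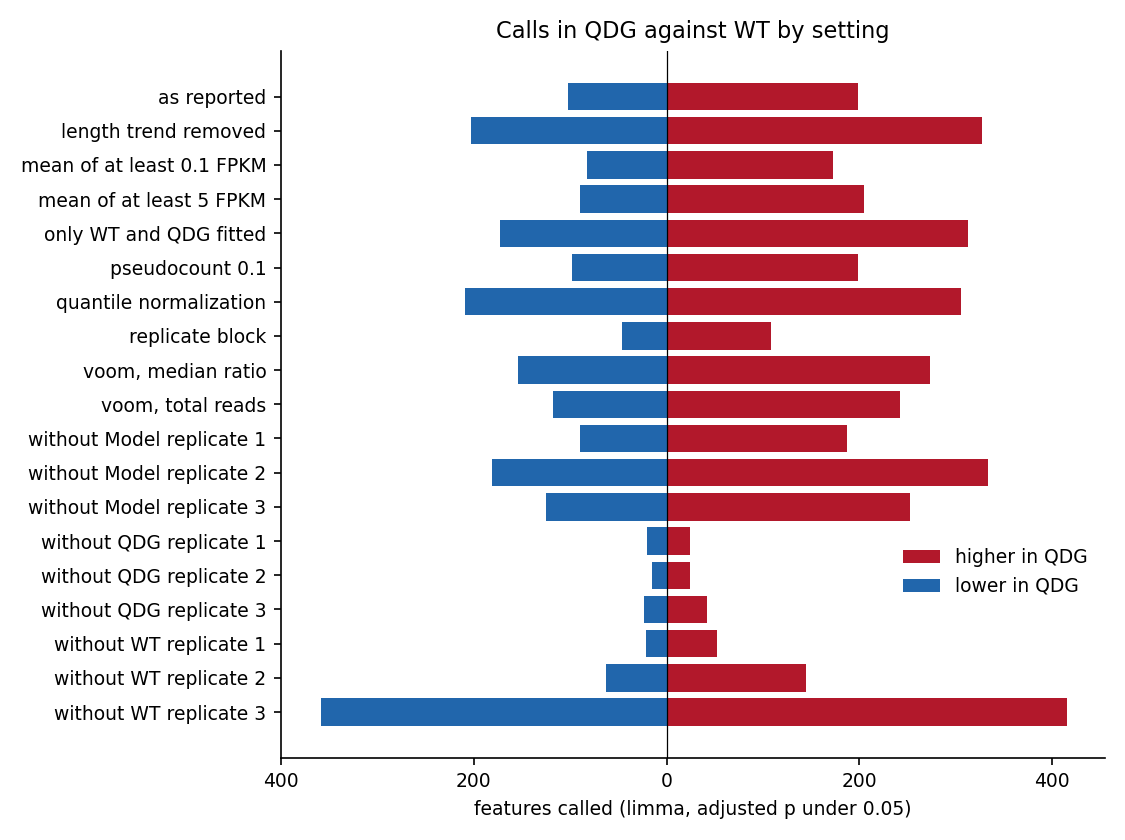
Number of features called lower (left of 0) and higher (right of 0) in QDG against WT, as reported and under each of 18 alternative settings. The bars are longest without WT 3 (416 higher and 359 lower). Without a QDG library they show 24 to 42 higher and 15 to 23 lower calls, and without WT 1 they show 52 and 21.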

How the data were processed

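The authors deposited 1 value per feature and library for 9 kidney libraries. The files state no unit. The values were read as FPKM made by the authors, because each feature's values are whole reads divided by a length and a library divisor: whole reads and whole lengths were recovered for all 17862 features (tolerance of 0.002 read plus 5e-09 of the reads). Per the submitters' processing notes, limma was used (aligner, counter, build and annotation: not given in the sources used here). Library divisors were 26.2 M to 31.4 M, and recovered reads in the listed features summed to 26.8 M to 29.4 M. The divisor was 0.9375 (Model 3) to 1.111 (WT 3) times this sum and smaller than it in 4 of 9 libraries, so it is not a plain library total of these reads. At these depths 1 read per kilobase is 0.0318 to 0.0382 FPKM. The deposited files hold no value of 0, and no feature was removed here for a 0.

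Features averaging 1 FPKM or more over 9 libraries were fitted as log2(FPKM + 1) with limma 3.58.1 in R 4.3.3 (intensity trend, all 3 groups sharing one spread), and a feature counts as called at an adjusted p under 0.05. The fit was also run on simulated data with the same spread for all features and groups, unlike the real libraries, and no result here relies on it. Between libraries of 1 group, chi-square per degree of freedom of the recovered reads was 16 or more, so no library repeated another within counting noise. The 48 gene and marker lists chosen for this comparison, written in symbols, matched 0 identifiers and were not tested. Members and lists were chosen with earlier results of these data known. The naming rule took called features without overlap by size of the difference and required a symbol. That requirement excluded every feature and was dropped, the 2 largest in each direction with an Ensembl identifier are named, and the new feature with the deepest fall was added after its values were seen. Alternatives were the pseudocount, the minimum level, quantile normalization, the groups fitted, a replicate block, voom on recovered reads, removal of a length trend and each library left out.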

Additional observations from a re-analysis of the deposited data

How the results depend on the processing

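QDG against WT called 199 features higher and 102 lower. Taking out the length trend, and with it each library's overall offset, gave 327 higher and 203 lower calls. Fitting WT and QDG without Model gave 313 and 173, and quantile normalization gave 306 and 209. Lower calls were 154 with voom and median-ratio scaling. With 1 library left out, higher calls ranged from 24 (without QDG 1 or QDG 2) to 416 (without WT 3) and lower calls from 15 (without QDG 2) to 359 (without WT 3). Lower calls were 63 without WT 2. The cause of these shifts was not tested, and neither was the effect of having fewer libraries when 1 is left out. The share of higher calls stayed between 59.4% (quantile normalization) and 69.5% (a mean of at least 5 FPKM) under the scaling and filter alternatives. With 1 library left out it ranged from 53.7% (without WT 3) to 71.2% (without WT 1). Among the scalings, the median of all features lay furthest from 0 under quantile normalization, at −0.013. The 5 described features kept their direction and call under all 18 alternatives, except ENSMUSG00000027875 without QDG 1, as given above. With the replicate number as a block, 108 features were higher and 46 lower. Same-numbered WT and QDG libraries did not deviate together (r from −0.128 to 0.09 across features), and 1 of 3 WT libraries was closest to the QDG library of its own number, so the numbers were not read as a pairing. The planned counts for each gene list were not run, since no list matched.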
